A study of Mus musculus with 12 samples.

Results

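The Tox and Nr4a transcription factors were examined in CD8+ T cells, the cytotoxic lymphocytes, from spleens of C57BL/6 mice, a common inbred strain. The set holds 7 genes, chosen by symbol: Tox, Tox2, Tox3 and Tox4, and Nr4a1, Nr4a2 and Nr4a3. All 7 were among the 24421 gene symbols counted in each library. One group was given an EZH2 inhibitor (EZH2i, n = 6 libraries), and the other the drug's solvent DMSO (n = 6 libraries). Both groups share the strain, the organ and the cell type. The labels name neither the compound, its dose or its duration, nor separate animals or cultures behind the 6 libraries, so the p-values rest on spread between libraries, which may be technical. EZH2, the catalytic subunit of Polycomb repressive complex 2, methylates histone H3 at lysine 27, which helps to keep genes silent.

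Tox proteins are chromatin factors that bind DNA through an HMG box. Tox is needed for T cell development in the thymus and, in chronic infection and tumours, for the survival of exhausted T cells, which keep inhibitory receptors and lose effector function. The Nr4a proteins are orphan nuclear receptors that act as immediate early genes: T cell receptor signals, through calcium, calcineurin and NFAT, raise their transcripts quickly. Tox, Tox2 and the Nr4a factors act downstream of NFAT in dysfunctional mouse CD8+ T cells.

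Libraries held 19610258 to 31206228 counts with EZH2i and 17215483 to 28092434 with DMSO. Library 6 of each group stood apart from the other 5, with the first principal component at -23.3 in EZH2i library 6 and 28.3 to 35.7 in the other EZH2i libraries, and at -64.1 in DMSO library 6 and -20.1 to -9.58 in the other DMSO libraries. Results are therefore also given without both libraries numbered 6. The CD8 T cell markers Cd3e, Cd3d, Cd8a and Cd8b1 summed to 1919 to 2897 CPM with EZH2i and 2565 to 3459 CPM with DMSO, with library 6 the lowest in each group. Of the 4, Cd8a was called lower (885 ± 47.3 CPM with EZH2i, 1091 ± 31.1 CPM with DMSO, log2 fold change -0.30, adjusted p = 0.00129), and its part in the results below was not tested. Cd4 stayed at or under 0.345 CPM in all 12 libraries. CPM is the count scaled by library size, with TMM factors. Markers of NK and innate lymphoid cells summed to 97.6 to 308 CPM with EZH2i and 50.6 to 127 CPM with DMSO, with library 6 the highest in each group. These sums mainly follow 1 gene, Eomes, at 140 ± 76.9 CPM with EZH2i and 70.5 ± 25.5 CPM with DMSO. The next highest averages were 5.10 CPM with EZH2i (Klrb1c) and 3.43 CPM with DMSO (Klre1). Eomes alone stood at 294 CPM in EZH2i library 6 and 119 CPM in DMSO library 6. Of 4 tested, 2 were called higher, Eomes and Klrb1c, while the NK receptor Ncr1 was at or under 0.119 CPM and Klra8 at 0 in all libraries. Myeloid markers summed to 7.21 to 21.0 CPM with EZH2i and 4.35 to 11.7 CPM with DMSO, with 2 of 3 tested called higher, Itgam and Itgax, and Csf1r at or under 0.086 CPM. The lists of other T helper cells (30.8 to 79.9 CPM with EZH2i, 33.8 to 66.1 CPM with DMSO), B cells (15.0 to 22.1 CPM with EZH2i, 19.2 to 25.3 CPM with DMSO) and erythroid cells and platelets (1.42 to 3.93 CPM with EZH2i, 1.01 to 3.03 CPM with DMSO) had 1, 0 and 0 called members, and Hbb-bs, Hba-a1 and Alas2 were at 0. The part of other cells in the results below was not tested. Ezh2 itself averaged 234 ± 26.6 CPM with EZH2i and 278 ± 29.4 CPM with DMSO (SD, n = 6 each; adjusted p = 0.0833), and an enzyme inhibitor need not change this transcript.

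With EZH2i, transcripts of Tox, Tox2, Tox3 and Nr4a2 rose, and none of the 7 was called lower. Tox2 had the largest change, at 284 counts with EZH2i and 12 with DMSO in all, while the summed-count ratios of Tox and the Nr4a genes, scaled by library size, were 1.42 to 1.54. Of the 7, 4 were called higher at a Benjamini-Hochberg adjusted p under 0.05 in edgeR's quasi-likelihood test, against 13.3% of all 11727 tested genes, and 0 were called lower, against 6.05%. None was lower at an unadjusted p under 0.05 or with DESeq2 either. Without both libraries numbered 6, 6 were called higher, against 23.9% of genes (44.8% in either direction). With the replicate number as a block 6 were also called higher, against 24.7% of genes, and 0 lower, against 24.3%. The genes added in both fits were Nr4a1 and Nr4a3. The labels do not say what the replicate numbers stand for. Here and below, the block and the pairs rest on a pairing inferred from these same counts. Over all genes, 1557 were called higher and 709 lower, and 1800 and 347 with upper-quartile scaling. Tox2 and Tox3 passed the filter on low counts only through their EZH2i libraries: 6 of 6 EZH2i libraries reached the filter's 0.409 CPM for both genes, against 0 DMSO libraries for Tox2 and 1 for Tox3. The count of calls is therefore no support of its own. In bulk RNA, fewer cells of a type and less RNA per cell cannot be told apart.

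**Figure D1:**
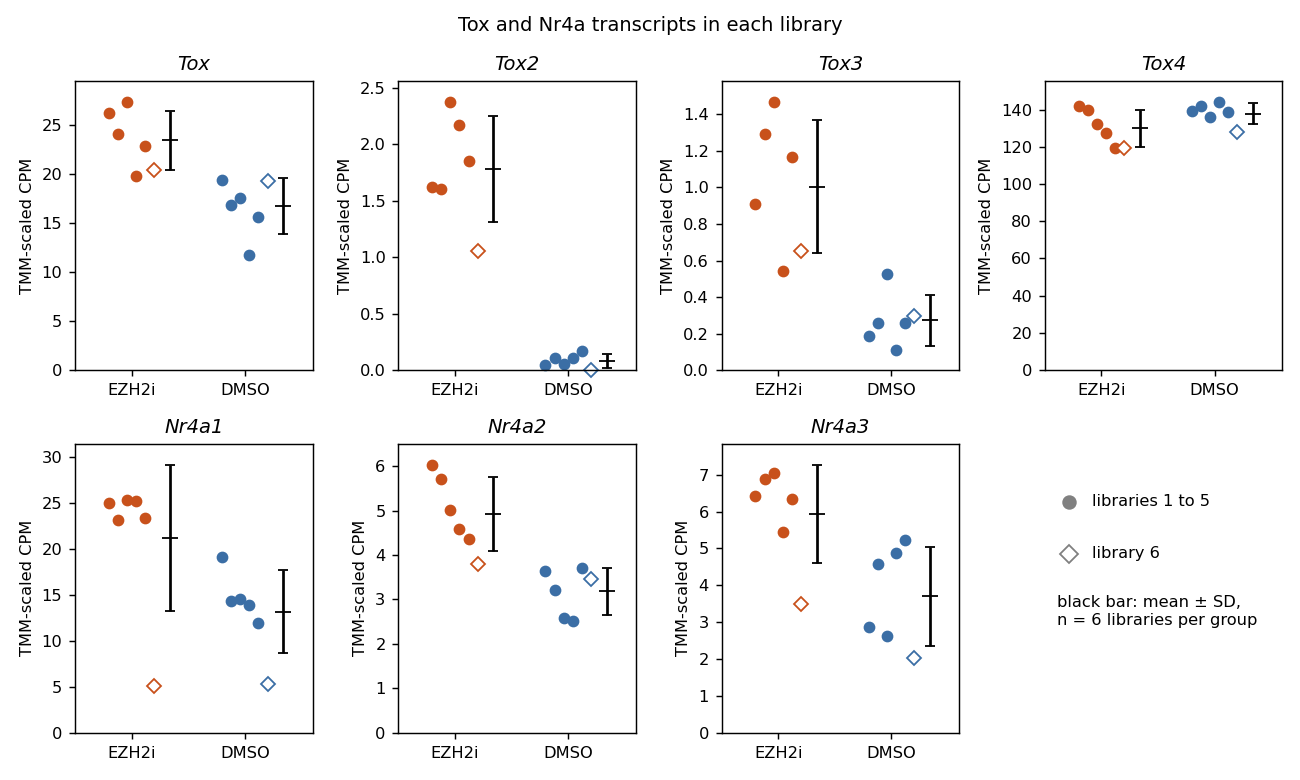
TMM-scaled CPM of the 7 genes (y axes, linear from 0) in each EZH2i and DMSO library (x axis); open diamonds are the libraries numbered 6, and black bars show the mean ± SD (n = 6). The groups do not overlap for Tox, Tox2, Tox3 and Nr4a2, and Nr4a1 stands at 5.14 CPM in EZH2i library 6 and 5.30 CPM in DMSO library 6, below all other libraries.

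Tox, the family's best studied member in exhausted T cells, lies on chromosome 4 from 6686353 to 6991557 (GRCm38, minus strand). It was measured at 19.9 to 27.3 CPM with EZH2i (median 23.5) and 11.7 to 19.4 CPM with DMSO (median 17.2). Every EZH2i library was above every DMSO library, but narrowly. The log2 fold change was 0.49 (SE 0.13, 95% interval 0.22 to 0.76, adjusted p = 0.0157), with a mean of 23.5 ± 3.01 CPM with EZH2i and 16.7 ± 2.85 CPM with DMSO. Between same-numbered libraries the log2 difference was 0.43, 0.52, 0.64, 0.76, 0.54 and 0.09 for numbers 1 to 6. The pair numbered 6 differed least, with EZH2i library 6 (20.5 CPM) near the bottom of its group and DMSO library 6 (19.3 CPM) near the top of its own. Without number 6 the log2 fold change was 0.58 (adjusted p = 0.000578).

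Tox2, which in mouse T cells acts with Tox in exhaustion and supports follicular helper T cells, lies on chromosome 2 from 163203125 to 163324170 (plus strand). It was near silent in DMSO, with 1, 3, 1, 3, 4 and 0 counts in libraries 1 to 6, and had 32, 51, 68, 56, 43 and 34 counts with EZH2i. On the CPM scale this was 1.05 to 2.37 with EZH2i (median 1.74) and 0 to 0.173 with DMSO (median 0.0815). The groups lie far apart, with the lowest EZH2i library, number 6, still above the highest DMSO library. The 0 counts of DMSO library 6 allow a level of up to 0.179 CPM. The ratio of summed counts, scaled by library size, was 19.8 (exact 95% interval 11.1 to 38.7, which covers counting error only). The fitted log2 fold change was 4.26 (SE 0.38, adjusted p = 7.69e-06), and depends on the prior count at so low a level. Even with EZH2i the level remained low beside that of Tox.

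The RefSeq table lists 5 start windows for Tox2, each of 250 bases before and 50 after a start (GRCm38.p6). The first is shown because it belongs to the gene with the largest change and is dense in CpG, the dinucleotide that marks CpG islands, the usual sites of Polycomb repressive complex 2 in mammals. It spans chr2:163202877-163203176 on the plus strand, with CpG in capitals:
Tox2: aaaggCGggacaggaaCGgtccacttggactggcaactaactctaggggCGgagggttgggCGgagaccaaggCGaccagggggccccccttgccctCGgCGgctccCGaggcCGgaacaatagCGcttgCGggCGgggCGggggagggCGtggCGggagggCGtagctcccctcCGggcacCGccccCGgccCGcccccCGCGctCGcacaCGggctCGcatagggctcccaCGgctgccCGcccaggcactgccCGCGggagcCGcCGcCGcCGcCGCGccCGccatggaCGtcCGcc
It holds 38 CpG, against a median of 7 over all 32851 windows in the table and 21 over the 11461 windows of tested genes; 4.45% of all windows hold more. The other Tox2 windows hold 39, 23, 7 and 8 CpG. The single windows of Tox3 (52 CpG), Tox4 (27 CpG), Nr4a1 (35 CpG), Nr4a2 (52 CpG) and Nr4a3 (26 CpG) are also above the median of tested genes. A high CpG count is thus particular neither to Tox2 nor to the genes called higher. No binding or methylation was measured.

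Tox3, a family member best known from breast and nervous tissue, lies on chromosome 8 from 90247040 to 90348343 (minus strand). It had 18, 41, 42, 14, 27 and 21 counts with EZH2i and 4, 7, 10, 3, 6 and 5 with DMSO in libraries 1 to 6. In CPM this was 0.544 to 1.47 with EZH2i (median 1.04) and 0.111 to 0.526 with DMSO (median 0.258). The groups touch without overlapping, at EZH2i library 4 and DMSO library 3. Tox3 rose with a log2 fold change of 1.91 (SE 0.36, adjusted p = 0.00228), and the ratio of summed counts was 3.89 (95% counting interval 2.69 to 5.78).

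Tox4, the ubiquitous member that belongs to a phosphatase complex with Ppp1r10 (PNUTS) and Wdr82, lies on chromosome 14 from 52279146 to 52296401 (plus strand). It stood at 119 to 142 CPM with EZH2i (median 129.6) and 128 to 144 CPM with DMSO (median 139). The groups overlap over most of their range. The log2 fold change was -0.09 (95% interval -0.22 to 0.05, adjusted p = 0.375), and a change within that interval cannot be told from 0 here. In the GENCODE M21 annotation 13.4% of Tox4's exon bases are shared with Mettl3 on the other strand and 2.81% with Rab2b, and 3.42% of those of Tox with the antisense gene Gm11802. The kit marked strand, but whether the counting used it is unstated, so these counts may hold reads of the partner genes; the other 5 genes share no exon bases with another annotated gene.

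Ratios between members were compared within each library. The log2 ratio of Tox2 to Tox within a library was -3.70 ± 0.37 with EZH2i and -6.76 ± 0.78 with DMSO (SD, n = 6 each), a difference of 3.07 (two-sided exact permutation p = 0.00216, adjusted p = 0.00541 over the 5 ratios tested). The log2 ratio of Tox4 to Tox was 2.47 ± 0.14 with EZH2i and 3.05 ± 0.31 with DMSO, a difference of -0.58 (exact permutation p = 0.00216, adjusted p = 0.00541). Tox2 is counted near 0 in DMSO and passed the filter through EZH2i libraries only, so its ratio adds no support beyond the counts above. In both ratios the 6 EZH2i libraries lay on one side of the 6 DMSO libraries, which gives the smallest p this permutation allows. With same-numbered libraries paired, the smallest exact p is 0.0312, and both ratios reached it, with an adjusted p = 0.0781 over the 5 ratios. These ratios use log2 CPM with a prior count of 2, which compresses the change of Tox2.

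The Nr4a genes are known targets of CREB as well as of NFAT, and their promoters are shown because the 3 genes had like fold changes. The windows run from 250 bases before to 50 after the RefSeq start (GRCm38.p6), with TGACG, the core of the cAMP response element bound by CREB, and its reverse complement CGTCA in capitals. They are chr15:101266596-101266895 (plus strand) for Nr4a1, chr2:57123954-57124253 (minus strand) for Nr4a2 and chr4:48045055-48045354 (plus strand) for Nr4a3:
Nr4a1: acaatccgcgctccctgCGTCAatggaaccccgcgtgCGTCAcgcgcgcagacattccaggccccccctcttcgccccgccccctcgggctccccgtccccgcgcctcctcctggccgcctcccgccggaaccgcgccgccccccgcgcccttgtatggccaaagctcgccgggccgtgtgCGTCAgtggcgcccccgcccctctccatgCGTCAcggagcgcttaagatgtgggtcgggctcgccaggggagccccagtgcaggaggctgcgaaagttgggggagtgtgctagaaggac
Nr4a2: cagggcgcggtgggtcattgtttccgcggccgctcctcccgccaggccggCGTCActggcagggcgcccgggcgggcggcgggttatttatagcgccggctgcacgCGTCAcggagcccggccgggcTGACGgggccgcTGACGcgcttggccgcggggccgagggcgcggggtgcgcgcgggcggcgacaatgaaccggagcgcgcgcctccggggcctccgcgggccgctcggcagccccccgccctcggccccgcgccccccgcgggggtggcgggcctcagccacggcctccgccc
Nr4a3: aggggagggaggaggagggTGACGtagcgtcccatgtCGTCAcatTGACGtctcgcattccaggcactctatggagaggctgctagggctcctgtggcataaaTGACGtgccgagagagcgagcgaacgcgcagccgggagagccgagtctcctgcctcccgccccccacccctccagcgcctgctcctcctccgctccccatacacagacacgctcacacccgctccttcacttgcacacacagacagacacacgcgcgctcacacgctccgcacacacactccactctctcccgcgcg
Each window holds 4 copies on either strand, and 0.231% of all windows and 0.567% of the windows of tested genes hold 4 or more. In Nr4a1 all 4 copies are part of the longer TGCGTCA (or its reverse complement), which occurs at least once in 2.12% of all windows and not in the windows of Nr4a2 and Nr4a3. The palindrome TGACGTCA is in none of the 3. The NFAT core GGAAA, searched on both strands, occurs once in the window of Nr4a2 and not in the others, against at least once in 61.3% of all windows. Among the Tox genes, Tox4 and the third Tox2 window hold TGACG once, and no window was available for Tox itself. These are letter matches, and binding was not measured.

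Nr4a1 (Nur77), a rapid reporter of T cell receptor signals, lies on chromosome 15 from 101254269 to 101274795. It was measured at 5.14 to 25.3 CPM with EZH2i (median 24.2) and 5.30 to 19.1 CPM with DMSO (median 14.1). In libraries 1 to 5 the groups did not overlap, at 23.1 to 25.3 CPM with EZH2i and 11.9 to 19.1 CPM with DMSO, and in number 6 both libraries were low. The log2 fold change was 0.68 over all 12 libraries (SE 0.35, 95% interval -0.07 to 1.43, adjusted p = 0.197), which missed the threshold. It was 0.73 without both libraries numbered 6 (adjusted p = 1.45e-05), 0.88 without EZH2i library 6 alone (adjusted p = 0.00689) and 0.65 with the replicate block (adjusted p = 7.85e-05). In the other 11 of 12 fits with a single library left out, Nr4a1 stayed uncalled, with an adjusted p of up to 0.310. Between same-numbered libraries the log2 difference was 0.39, 0.68, 0.79, 0.86 and 0.97 for numbers 1 to 5 and -0.04 for number 6.

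Nr4a2 (Nurr1), best known from dopamine neurons and also induced in T cells, lies on chromosome 2 from 57106830 to 57124003. It stood at 3.81 to 6.02 CPM with EZH2i (median 4.802) and 2.51 to 3.71 CPM with DMSO (median 3.33). The groups do not overlap, by a margin set by EZH2i library 6, the lowest of its group. Nr4a2 rose with a log2 fold change of 0.63 (SE 0.15, 95% interval 0.30 to 0.95, adjusted p = 0.0113). The DMSO library numbered 6, at 3.45 CPM, was within the range of its group, unlike for Nr4a1.

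Nr4a3 (Nor1) lies on chromosome 4 from 48045153 to 48086447. It stood at 3.50 to 7.05 CPM with EZH2i (median 6.39) and 2.02 to 5.23 CPM with DMSO (median 3.71). In both groups library 6 was the lowest, and without it the lowest EZH2i library (5.44 CPM) was just above the highest DMSO library (5.23 CPM). The log2 fold change was 0.67 (SE 0.25, 95% interval 0.14 to 1.20) and missed the threshold (adjusted p = 0.0743). The adjusted p was 0.00415 without both libraries numbered 6, 0.0149 without EZH2i library 6, 0.00169 with the replicate block and 0.0369 with DESeq2. In the other 11 of 12 fits with a single library left out, Nr4a3 stayed uncalled, with an adjusted p of up to 0.147. Nr4a3 was higher with EZH2i in 6 of 6 same-numbered pairs, as were Tox, Tox2, Tox3 and Nr4a2, against 21.2% of all tested genes. For Tox2 and Tox3, which passed the filter only through EZH2i libraries, this adds no support. The pairing itself was inferred from the same counts and is not settled for numbers 1 to 5.

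The 3 Nr4a genes had like summed-count ratios, of 1.52 (Nr4a1), 1.54 (Nr4a2) and 1.51 (Nr4a3), and no shift in their ratios to each other was detected. The log2 ratio of Nr4a2 to Nr4a1 was -1.94 ± 0.76 with EZH2i and -1.94 ± 0.72 with DMSO, that of Nr4a3 to Nr4a1 -1.69 ± 0.58 with EZH2i and -1.80 ± 0.62 with DMSO, and that of Nr4a3 to Nr4a2 0.25 ± 0.24 with EZH2i and 0.14 ± 0.62 with DMSO (two-sided exact permutation p = 0.987, 0.755 and 0.708, adjusted p = 0.987, 0.944 and 0.944). The differences were 0.01, 0.11 and 0.11 and changed sign when single libraries were left out, so a small shift either way cannot be told from the spread. The composition of the family differed in the libraries numbered 6. Per exon length, Nr4a1 made up 72.1% to 77.9% of the summed Nr4a level in EZH2i libraries 1 to 5 and 49.0% in EZH2i library 6, and 65.5% to 79.8% in DMSO libraries 1 to 5 and 56.0% in DMSO library 6.

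**Figure D2:**
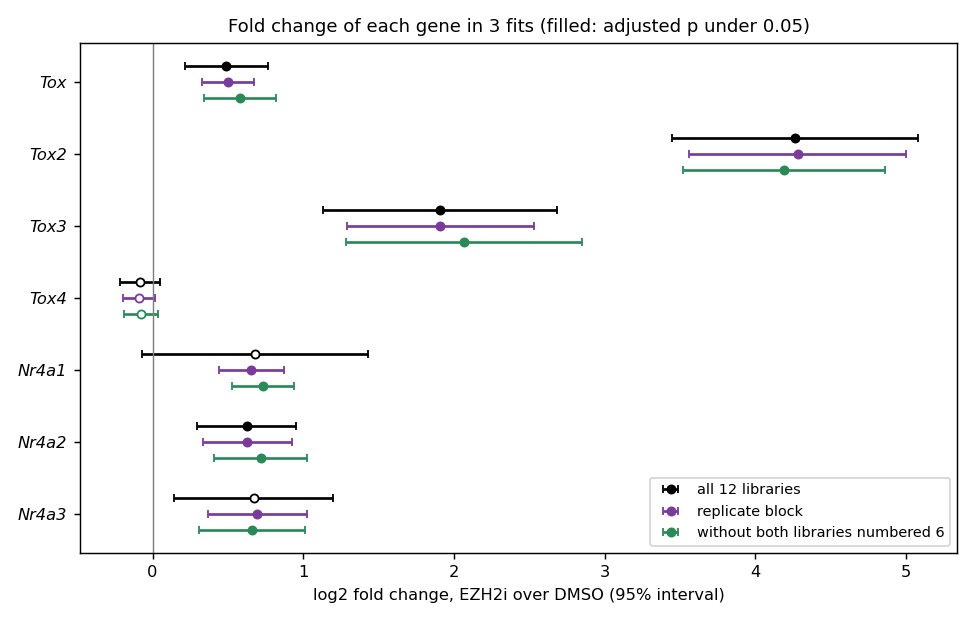
Log2 fold change of EZH2i over DMSO (x axis) with its 95% interval for each gene (y axis) in 3 fits: all 12 libraries, the replicate block, and without both libraries numbered 6; filled points have an adjusted p under 0.05. The interval of Nr4a1 runs from -0.07 to 1.43 with all libraries and from 0.52 to 0.94 without number 6, while Tox4 stays near 0 in all 3 fits.

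Counting both directions, the listed immediate early and AP-1 factors were called about as often as genes in general. The list also holds other regulators, such as Bach2 and Irf4. Of 18 tested immediate early and AP-1 factors 4 were called higher and 0 lower, and the list's median log2 fold change was 0.13 against -0.01 over all tested genes. The share called, 22.2%, compares with 19.3% of all tested genes in either direction. All 4 calls were higher, and 13.3% of all tested genes were called higher. At an unadjusted p under 0.05 the count of lower members was 1, and with DESeq2 also 1. Those called were Fosl2, an AP-1 subunit (33.0 ± 4.88 CPM with EZH2i, 12.9 ± 1.93 CPM with DMSO, log2 fold change 1.35, adjusted p = 8.01e-06), Nfil3, a repressor linked to Tim-3 expression (0.82, adjusted p = 0.0313), the stress factor Atf3 (0.79, adjusted p = 0.0152) and Jun (0.67, adjusted p = 0.00478). The call of Nfil3 was lost on leaving out any of 6 single libraries (EZH2i 4, DMSO 1 to 5), with an adjusted p of up to 0.0769. With the block 7 of the 18 members were called higher and 1 lower, where 49% of all tested genes were called, 24.7% higher and 24.3% lower. Without number 6 the list's counts were 6 and 1. Egr1 and Egr2, receptor-induced zinc finger factors named here after their values were seen, had log2 fold changes of 0.15 (95% interval -1.10 to 1.40, adjusted p = 0.893) and -0.09 (-1.14 to 0.97, adjusted p = 0.927). Both were low in the libraries numbered 6, as Nr4a1 was. Called members of the list did not share this. Fosl2 (41.1 CPM with EZH2i, 15.8 CPM with DMSO) and Nfil3 (42.5 CPM with EZH2i, 26.0 CPM with DMSO) were highest in number 6 of both groups. Jun was highest there with DMSO only (72.8 CPM), and Atf3 in number 6 lay within the range of the other libraries of each group. Egr1 stood at 8.45 CPM in EZH2i library 6 and 104 to 169 CPM in the other EZH2i libraries, and at 15.1 CPM in DMSO library 6 and 66.2 to 175 CPM in the other DMSO libraries. Egr2 stood at 0.588 CPM in EZH2i library 6 and 2.05 to 4.60 CPM in the others, and at 0.595 CPM in DMSO library 6 and 1.96 to 5.42 CPM in the others. The labels do not say what sets number 6 apart.

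**Figure D3:**
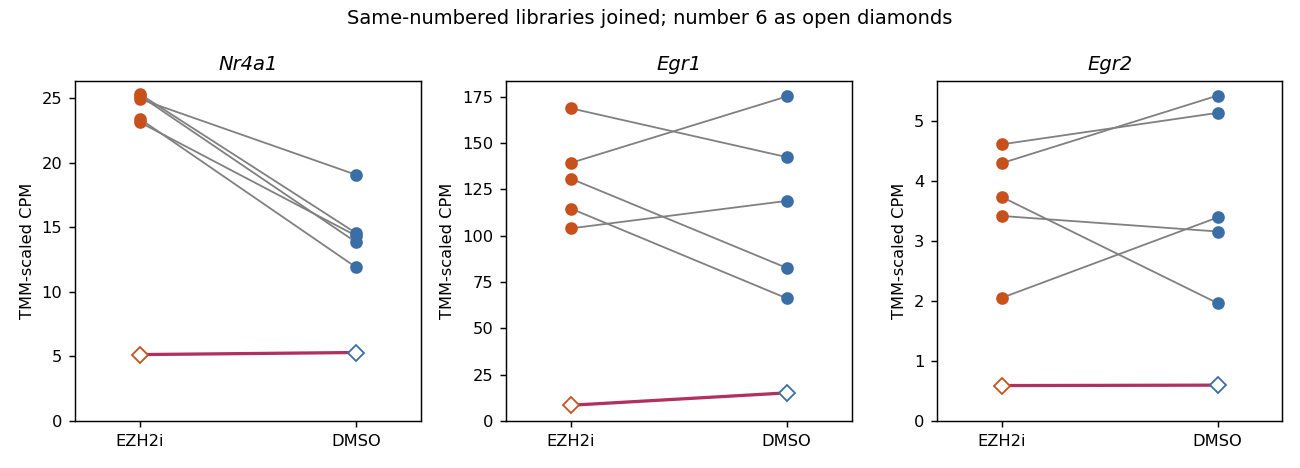
TMM-scaled CPM (y axes, linear from 0) of Nr4a1, Egr1 and Egr2 in EZH2i and DMSO libraries, with same-numbered libraries joined by lines and number 6 as open diamonds. Number 6 is lowest for all 3 genes in both groups, unlike for Fosl2 and Nfil3, which were highest there. Among numbers 1 to 5 the EZH2i value is higher in every pair for Nr4a1 and in some pairs only for Egr1 and Egr2.

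Levels were compared between the 7 genes as CPM per kilobase of exon in the GENCODE M21 annotation, which may not be the one used for counting. With EZH2i the order was Tox4 (18.7 ± 1.40), Nr4a1 (6.04 ± 2.26), Tox (3.09 ± 0.40), Nr4a2 (1.21 ± 0.21), Nr4a3 (0.992 ± 0.220), Tox2 (0.523 ± 0.138) and Tox3 (0.299 ± 0.109). With DMSO it was Tox4 (19.8 ± 0.81), Nr4a1 (3.76 ± 1.29), Tox (2.20 ± 0.37), Nr4a2 (0.785 ± 0.130), Nr4a3 (0.618 ± 0.226), Tox3 (0.0813 ± 0.0419) and Tox2 (0.0242 ± 0.0180). Tox2 and Tox3 thus exchanged the last places, with overlapping library ranges in each group. The ranges of Nr4a1 and Tox, and of Nr4a2 and Nr4a3, also overlapped in both groups, while Tox4 was above and Tox above Nr4a2 in all libraries of each group.

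Among all tested genes, divided into 4 bins of equal size by mean CPM, Tox2, Tox3, Nr4a2 and Nr4a3 fell into the lowest bin (0.318 to 8.61 CPM), Tox and Nr4a1 into the second and Tox4 into the highest. In the lowest bin 30% of genes were called higher, in the second 13.9% and in the highest 3.44%. The log2 fold change of Tox2 was exceeded by 0.341% of the genes in its bin, that of Tox3 by 7.71%, those of Nr4a2 and Nr4a3 by 37.6% and 35.8%, and those of Tox and Nr4a1 by 11.2% and 6.75%. Rises of the size of Nr4a2's were common among genes of its level, and those of the size of Tox2's were rare. Tox2 passed the filter only through its EZH2i libraries, so its place in the bin is a description. Groups did not overlap, with EZH2i above, for 4 of the 7 genes and for 7.5% of all tested genes, and with EZH2i below for 0 of the 7 and 2.74% of genes. Tox2 and Tox3, which are among these 4, passed the filter only through EZH2i libraries, so this count is no support of its own.

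**Figure D4:**
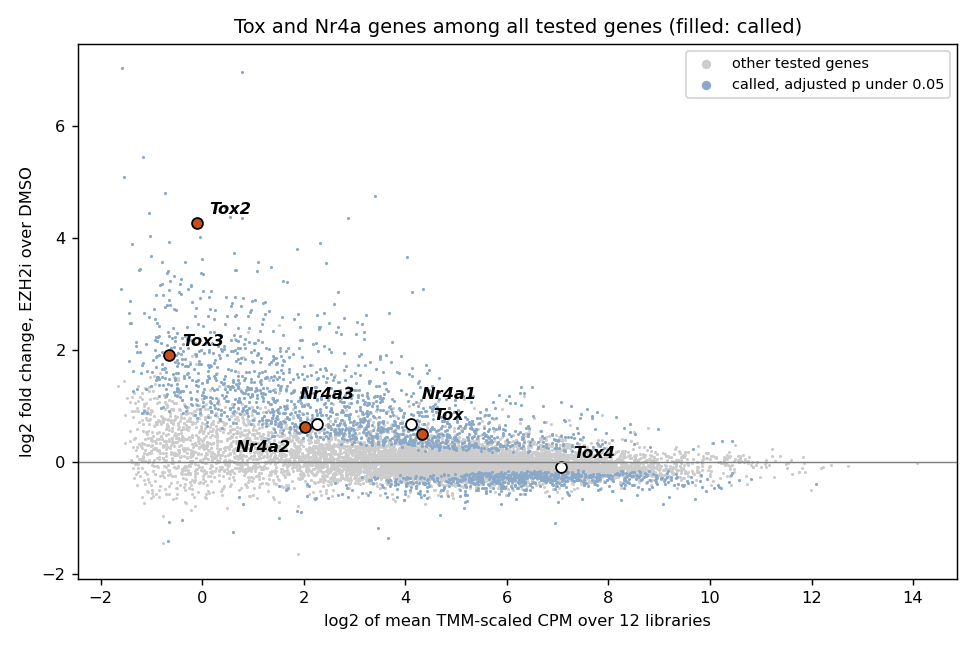
Log2 fold change of EZH2i over DMSO (y axis) against the log2 of the mean TMM-scaled CPM (x axis) for 11727 tested genes, with called genes in blue, the 7 Tox and Nr4a genes as large circles and those called filled. Large rises are mostly among genes of low level, where Tox2 and Tox3 lie, and Tox4, at a high level, lies near 0.

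The calcium, calcineurin and NFAT pathway upstream of these genes had a share called, 22.2%, near the 19.3% of all tested genes. Of the 18 tested 3 were called higher and 1 lower, and the list's median log2 fold change was -0.08. Homer3, which competes with calcineurin for NFAT, rose (7.67 ± 0.356 CPM with EZH2i, 4.14 ± 0.773 CPM with DMSO, log2 fold change 0.89, adjusted p = 0.000353), as did the calcineurin catalytic subunit Ppp3ca (0.36, adjusted p = 0.0131) and the calcineurin regulator Rcan1 (0.29, adjusted p = 0.0489), while the regulatory subunit Ppp3r1 fell by 0.18 on the log2 scale (adjusted p = 0.0446). The calls of Rcan1 and Ppp3r1 were lost on leaving out most single libraries (10 and 9 of 12), and without EZH2i library 1, 3, 4 or 5 or DMSO library 1, 2 or 5 the list had 2 calls. Nfatc1 and Nfatc2, the NFAT factors themselves, named after their values were seen, had log2 fold changes of -0.11 and -0.12 (adjusted p = 0.501 and 0.409). With the block 3 members were called higher and 4 lower, and without number 6 these counts were 4 and 3.

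The other nuclear receptors, the superfamily of Nr4a, included 8 of 22 tested members called higher and 0 lower, a share of 36.4% and a list median of 0.35 on the log2 scale. Of all tested genes 19.3% were called in either direction and 13.3% higher. As the list was chosen with earlier results of these data known, its share is no support of its own. Pparg, Vdr, Nr6a1 and Nr2f6, described below, lie in the lowest of the expression bins, where 30% of genes were called higher. No member was lower at an unadjusted p under 0.05 or with DESeq2, which called 11 higher. The largest were Pparg, the fat-cell receptor (1.99 ± 1.61 CPM with EZH2i, 0.357 ± 0.278 CPM with DMSO, log2 fold change 2.55, adjusted p = 0.00527), the vitamin D receptor Vdr (1.75, adjusted p = 1.36e-05), the germ cell factor Nr6a1 (1.33, adjusted p = 0.00204) and Nr2f6, a repressor of T cell cytokines (1.05, adjusted p = 9.19e-05). Pparg stood at 5.23 CPM in EZH2i library 6 and 0.851 to 1.71 CPM in the other EZH2i libraries, and leaving out both libraries numbered 6 gave a log2 fold change of 2.14. Rxra, named after its values were seen because the retinoid X receptors pair with Nr4a1 and Nr4a2, had a log2 fold change of 0.67 that missed the threshold (adjusted p = 0.112, and 1.31e-05 with the block). The count of calls was 4 without EZH2i library 3, 4 without DMSO library 2, 5 without DMSO library 5, 14 without EZH2i library 6 and 15 with the block, all of these higher; with the block 49% of all tested genes were called and 24.7% called higher. Without both libraries numbered 6, 15 were higher and 1 lower.

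Of 21 other tested HMG-box factors 2 were called higher and 4 lower, a share of 28.6% against 19.3% of all tested genes, and the list median was 0.03 on the log2 scale. Sox12 (14.3 ± 2.34 CPM with EZH2i, 8.20 ± 1.96 CPM with DMSO, log2 fold change 0.80, adjusted p = 0.00486) and Bbx (0.31, adjusted p = 0.00618) rose, and the abundant chromatin proteins Hmgb1 (-0.45, adjusted p = 0.0149) and Hmgb2 (-0.32, adjusted p = 0.00214) fell. Without EZH2i library 6 there were 10 calls, 4 higher and 6 lower, and with the block 12, 5 higher and 7 lower, against 49% of all tested genes. Among 15 partners of Tox proteins, the HBO1 acetyltransferase complex that binds Tox and the phosphatase complex of Tox4, 0 were called higher and 4 lower, against 6.05% of all tested genes called lower, with a median of -0.14. The share called in either direction was 26.7%, against 19.3% of all tested genes. None was higher at an unadjusted p under 0.05 or with DESeq2, which called 5 lower. These were the HBO1 subunit Meaf6 (24.7 ± 2.097 CPM with EZH2i, 33.4 ± 2.31 CPM with DMSO, log2 fold change -0.43, adjusted p = 0.00165) and the phosphatase catalytic subunits Ppp1ca (-0.39, adjusted p = 0.00118), Ppp1cb (-0.25, adjusted p = 0.0226) and Ppp1cc (-0.24, adjusted p = 0.0067). Ppp1cb lost its call with upper-quartile scaling and without EZH2i library 3, 4 or 5 (adjusted p of up to 0.0594). The list had 7 calls, all lower, without EZH2i library 6, and 8 lower and 1 higher with the block, which called 24.3% of all tested genes lower. It was chosen with earlier results of these data known, so its shares are no support of their own.

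Of 11 tested receptors linked to exhaustion, in which Tox and Nr4a factors are known to act, 5 were called higher and 0 lower, and the list median was 0.68 on the log2 scale. The share called was 45.5%, against 19.3% of all tested genes in either direction and 13.3% higher. The list was chosen with earlier results of these data known, so this share is no support of its own. At an unadjusted p under 0.05 the count of lower members was 1, and with DESeq2 also 1. Cd200r1 (1.14, adjusted p = 0.00128), Tigit (1.05, adjusted p = 0.000907), Pdcd1 (0.87, adjusted p = 0.000679) and the ectoenzyme Cd38 (0.85, adjusted p = 0.000376) led the list. Only these 4 called members with the largest change are named, so the uncalled receptors are not shown. Cd200r1 lies in the lowest expression bin, where 30% of genes were called higher, and Pdcd1 and Cd38 in the second, with 13.9%. There were 8 calls without EZH2i library 6, 7 of them higher, and 10 with the block, 9 of them higher, against 49% of all tested genes called with the block.

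The tested genes whose log2 CPM, relative to their own mean, lay nearest to that of each gene over the 12 libraries were ranked by the root mean square difference, as a description. For Tox2 they were Flt4 (0.33), a receptor tyrosine kinase of lymphatic vessels, the desmosome protein Dsp (0.34) and the neural factor Olig3 (0.36), all at or under 0.605 CPM in every DMSO library. For Nr4a1 they were Pbx4 (0.17), Lztfl1 (0.18) and Adamtsl4 (0.18), which were also low in number 6 of both groups, as their choice by profile makes likely. For Tox they were Hipk2 (0.10), the nuclear receptor Ppard (0.12) and Tesk1 (0.12), and for Tox3 Sult2b1 (0.36), Map4k5 (0.39) and Fut10 (0.39). Nr4a2 lay nearest to Arhgap29 (0.14), Gphn (0.14) and Fam213a (0.15), and Nr4a3 to Wls (0.19), Nup210l (0.20) and Pde5a (0.20). The nearest to Tox4 were Armt1 (0.04), Zfp217 (0.05) and Ssr3 (0.05), genes whose level hardly varied. The median difference over the 11006 genes compared was 1.86 for Tox2, 0.80 for Nr4a1 and 0.42 for Tox.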

How the data were processed

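Polyadenylated RNA of 12 libraries was sequenced as single-end reads with a stranded kit, per the labels' protocols. The deposited values are raw read counts per gene symbol, which the authors made on GRCm38 (mm10). The submitters' processing notes name featureCounts, TopHat2 2.1.1, Trimmomatic 0.38, SAMtools 1.9 and FastQC 0.11.7; annotation, strand setting and multi-mapping rule were not given.

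Counts were fitted over all genes with edgeR 4.0.16 in R 4.3.3 (filterByExpr, TMM, quasi-likelihood test, group alone), with Benjamini-Hochberg adjustment over 11727 genes. The SE is the log2 fold change divided by the square root of F. Alternatives were upper-quartile scaling, DESeq2 1.42.0, no filter, a replicate block, and leaving out libraries. Replicate numbers were taken as pairs because deviations of same-numbered libraries correlated across genes (r 0.213 to 0.847). The lowest r was 0.0371 without number 6, so pairs 1 to 5 are not settled. Only for 3 of the 6 numbers was the same-numbered library of the other group the best match in both directions. No 2 libraries within EZH2i or DMSO agreed within sampling noise (chi-square per degree of freedom at least 4.79).

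Members and lists were chosen with earlier results of these data known. Named were the 7 genes, Ezh2, the called genes with the greatest change in each list (at most 4), and the 3 genes nearest in profile to each member. Sequences are from RefSeq, where 6 of the 7 genes matched, all but Tox, and positions from GENCODE M21.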

Additional observations from a re-analysis of the deposited data

Results flagged for a closer look

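In groups of 6 libraries, a library was singled out where its gap to the nearest other exceeded 0.625 of the group's range, a rule that chance meets in about 1 of 20 groups. Of 116 groups of values, 21 were singled out, 17 of them at a library numbered 6. Some groups are of genes picked for profiles near those of the members. The groups are therefore not independent, and this tally cannot be set against that rate.

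Nr4a1 stood at 5.14 CPM in EZH2i library 6 and 23.1 to 25.3 CPM in the other EZH2i libraries. The log2 ratios of Nr4a2 to Nr4a1 (-0.42) and of Nr4a3 to Nr4a1 (-0.54) were high in EZH2i library 6. The genes with profiles near Nr4a1 were low in the same library, namely Adamtsl4 (1.24 CPM), Lztfl1 (7.06 CPM with EZH2i, 8.87 CPM with DMSO) and Pbx4 (2.45 CPM with EZH2i, 2.38 CPM with DMSO), as were Wls (28.6 CPM) and Nup210l (5.17 CPM), near Nr4a3. All of these were picked for their likeness to Nr4a1 or Nr4a3 over the same libraries, so their low values add no support of their own.

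High in library 6 were Nfil3 (42.5 CPM with EZH2i, 26.0 CPM with DMSO), Nr6a1 (4.06 CPM with EZH2i), Pparg (5.23 CPM with EZH2i) and Jun (72.8 CPM with DMSO). Low in library 6 were Hmgb2 (1207 CPM with EZH2i) and Ezh2 (223 CPM with DMSO).

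Other libraries singled out were DMSO library 4, low in Meaf6 (28.8 CPM) and Ppp1ca (635 CPM), EZH2i library 3, high in Vdr (5.58 CPM), and DMSO library 5, low in Vdr (0.821 CPM).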

How the results depend on the processing

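No member changed direction under any alternative run, and Tox, Tox2, Tox3 and Nr4a2 stayed called in each of them. Calls over all genes numbered 5741 with the replicate block, 5270 without both libraries numbered 6 and 1732 to 4079 with single libraries left out, against 2266. The replicate block and the omission of both libraries numbered 6 gave Nr4a1 log2 fold changes of 0.65 and 0.73 and Nr4a3 0.69 and 0.66, all called; DESeq2 gave Nr4a3 0.65, called. With single libraries left out Nr4a1 ran from 0.52 to 0.88 and Nr4a3 from 0.55 to 0.78, and both were called only without EZH2i library 6. List calls with the block were 10 exhaustion receptors, 8 immediate early factors, 7 NFAT pathway genes, 12 HMG-box factors, 15 nuclear receptors and 9 Tox partners, and without number 6 they were 9, 7, 7, 10, 16 and 9; without the filter the NFAT pathway had 2. Leaving out single libraries gave 4 to 8, 3 to 5, 2 to 4, 4 to 10, 4 to 14 and 3 to 7. The difference in the ratio of Nr4a2 to Nr4a1 ran from -0.30 to 0.27 and was -0.030 without number 6, that in the ratio of Nr4a3 to Nr4a1 from -0.12 to 0.24 and was -0.028, and that in the ratio of Nr4a3 to Nr4a2 from -0.072 to 0.26. Paired by number, the Tox2 to Tox and Tox4 to Tox differences of 3.07 and -0.58 had an adjusted p = 0.0781. The cause of these shifts was not tested. Tox2 and Tox3 rest on 12 and 35 DMSO counts.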
